A study of Mus musculus with 2 samples.

Results

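Mir221 and Mir222 are neighbouring microRNA genes on the mouse X chromosome that carry the same seed. They were taken by name, with the deposited gene identifiers matched to GENCODE M21 symbols, and are 2 of 2202 annotated microRNA genes. Both were detected in both libraries and both passed the minimum of a mean of 10 counts that 466 genes passed. The data were microRNA read counts from 2 libraries of wild-type female B6NCrl mice (a C57BL/6 substrain), labelled as control tissue from a layer of hippocampus, the brain region of memory formation. No layer, age, treatment or second group is given in the labels. The libraries, biological replicates 2 and 1, have separate biosample records and a common donor record, so the spread between them may be technical. Adapter trimming followed a different document for each library, so trimming and biosample cannot be told apart.

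MicroRNAs are cut from hairpin transcripts, and the mature strand guides repression of messenger RNAs, most often through a match in the 3′ untranslated region (3′UTR) to its seed, bases 2 to 8. miR-221 and miR-222 are known as a pair that arises from one genomic cluster and lowers the cell cycle inhibitors p27 (Cdkn1b) and p57 (Cdkn1c) and the receptor Kit. They are studied in endothelium and vascular smooth muscle and in tumours, and nerve growth factor induces both in rat PC12 cells.

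The mature sequences show what the pair shares and where it parts. Capitals mark the seed in the mature sequences, which come from RefSeq (GRCm38.p6).

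miR-221-3p: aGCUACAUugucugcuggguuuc

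miR-222-3p: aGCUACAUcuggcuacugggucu

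miR-1928: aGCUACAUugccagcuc

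miR-221-5p: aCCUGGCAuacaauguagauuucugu

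The 3p strands of the pair are both 23 bases long. Their first 8 bases are identical, they first differ at base 9, and without gaps 11 of 23 positions (47.8%) carry the same base. Of 1738 mature microRNAs in the RefSeq table, 3 have this seed, the third being miR-1928 from chromosome 1. The 5p strand of Mir221 has another seed. The deposited counts are per gene, so reads of the 5p and 3p strands of a hairpin are added together.

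The RefSeq hairpins (GRCm38.p6, minus strand of chromosome X) are printed with the 3p strand in capitals, to show where it lies in each precursor.

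Mir221 hairpin: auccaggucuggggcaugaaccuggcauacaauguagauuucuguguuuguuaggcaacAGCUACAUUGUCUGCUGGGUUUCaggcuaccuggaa

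Mir222 hairpin: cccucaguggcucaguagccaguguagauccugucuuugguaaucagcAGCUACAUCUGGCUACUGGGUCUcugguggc

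Mir221 (ENSMUSG00000065422.1) lies at chrX:19146294-19146388 and Mir222 (ENSMUSG00000065471.1) at chrX:19146893-19146971, both on the minus strand of mm10. Mir222 is the 5′ gene of the transcript direction, and 504 bases separate the hairpins. Neither overlaps any other annotated gene, so both are intergenic in GENCODE M21. The nearest gene is the noncoding Gm14636, on the same strand and 10010 bases upstream of Mir222. The nearest protein-coding gene is Tex13c3, at a distance of 332 kb. The hairpins have at most 9 bases in a row in common. Against all other annotated microRNA hairpins the longest shared stretch was 13 bases for Mir221 and 12 for Mir222. A read of 18 or more bases that matches exactly therefore fits no other annotated microRNA hairpin, although copies elsewhere in the genome were not searched.

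The 3′UTRs of Cdkn1b, Cdkn1c and Kit show what a match to the seed looks like. The 7-base complement of the seed, ATGTAGC, was searched in GENCODE M21 transcripts (mm10), on the sense strand of the 3′UTR of the transcript with the longest coding sequence (among ties, the longest 3′UTR), and its bases are in capitals below.

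Cdkn1b: ctctaaaagcattggATGTAGCa

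Cdkn1c: tgggacctttcgttcATGTAGCa

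Kit, first match: aatgatgggagatatATGTAGCa

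Kit, second match: tttgtaaatattgaaATGTAGCa

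These matches lie in exonic 3′UTR sequence, at chr6:134924416-134924438 on the plus strand for Cdkn1b and chr7:143458925-143458947 on the minus strand for Cdkn1c. Those of Kit lie at chr5:75654977-75654999 and chr5:75656508-75656530 on the plus strand. Among 3′UTRs at least as long as the gene's own, trimmed to the same length, the 7 bases occurred at least once in 24.5% of 1737 for Cdkn1b (3439 bases), in 4.64% of 11290 for Cdkn1c (688 bases) and in 15.9% of 4014 for Kit (2177 bases). A match is a string of letters and not a measured site, and no messenger RNA was measured here.

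Mir221 was among the microRNA genes with the most counted reads, and Mir222 had several times fewer. Whether reads per molecule are alike for the pair was not tested. Levels are CPM, a gene's sense counts per 1000000 sense counts over all microRNA genes, which totalled 5901107 in replicate 2 and 6713867 in replicate 1. A microRNA read spans a whole mature strand, so counts were not divided by length unless stated. Mir221 had 39889 counts in replicate 2 and 85006 in replicate 1, which is 6760 CPM (exact 95% interval 6694 to 6826) in replicate 2 and 12661 CPM (12577 to 12746) in replicate 1. The level in replicate 2 was thus the lower one, with intervals that do not overlap and that cover counting error only. Mir222 had 7670 counts in replicate 2 and 9280 in replicate 1, which is 1300 CPM (exact 95% interval 1271 to 1329) in replicate 2 and 1382 CPM (1354 to 1411) in replicate 1. These intervals are also apart, though the gap is small.

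Over both libraries Mir221 averaged 9710 ± 4173 CPM and Mir222 averaged 1341 ± 58.3 CPM (SD, n = 2). The libraries differed far more for Mir221 than for Mir222, and both Mir221 values lay above both Mir222 values. Mir1928, the other gene with this seed, had 0 counts in both libraries, which allows up to 0.508 CPM of counted reads in replicate 2 and 0.447 CPM in replicate 1. Its hairpin shares 19 bases with that of Mir1957a, and reads that fit both count for no gene, so this limit is not one on its level. All counted reads from genes with the seed therefore came from the pair, which held 0.806% of the sense counts in replicate 2 and 1.40% in replicate 1. No read was counted on the antisense strand of either hairpin in either library, and the counts without strand were the same as the sense counts.

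**Figure D1:**
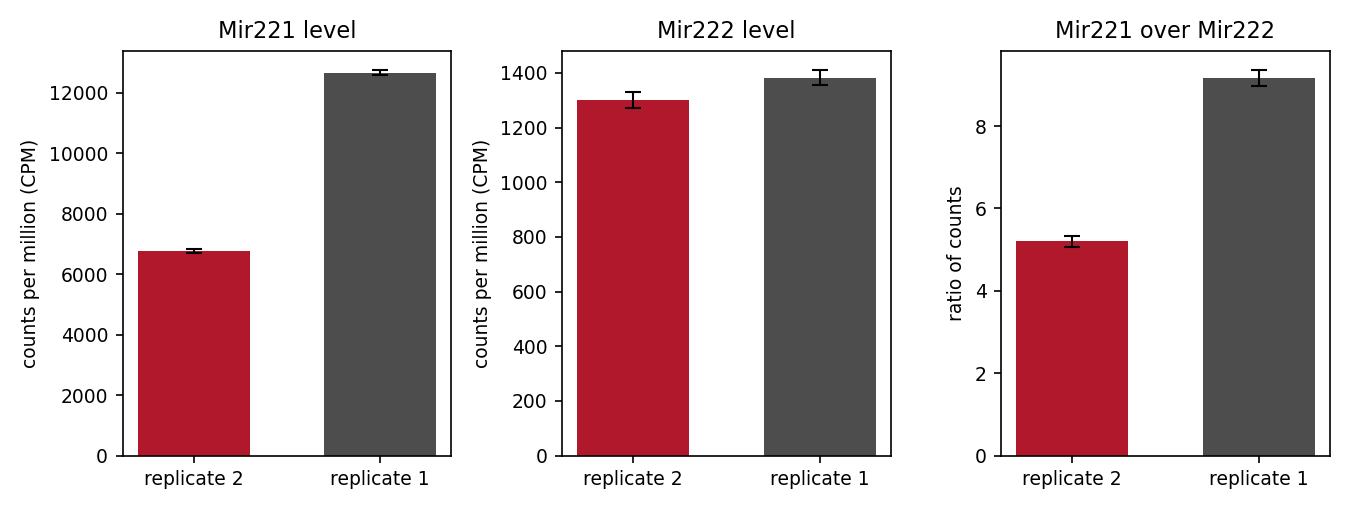
Level of Mir221 and of Mir222 in CPM, with the ratio of their counts, in replicate 2 and replicate 1 (bars from 0, exact 95% intervals for counting error). Mir221 stands at 6760 CPM in replicate 2 and 12661 CPM in replicate 1, whereas Mir222 stands at 1300 CPM in replicate 2 and 1382 CPM in replicate 1. The ratio is 5.20 in replicate 2 and 9.16 in replicate 1.

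In the order of all 2202 genes by mean level Mir221 was at place 23 and Mir222 at place 78. Multimapped reads, 45.9% of all reads in replicate 2 and 43.9% in replicate 1, count for no gene. Genes that share sequence with another hairpin may therefore stand too low in this order. Mir221 was at place 29 in replicate 2 and 18 in replicate 1, and Mir222 at place 72 in replicate 2 and 77 in replicate 1, so that the members moved in opposite directions along the order. Directly above Mir221 was Mir433 at 9724 ± 2380 CPM and directly below it Mir328 at 9584 ± 371 CPM (SD, n = 2). Directly above Mir222 was Mir93 at 1349 ± 106 CPM and directly below it Mir130a at 1231 ± 366 CPM (SD, n = 2). None of these 4 neighbours differed from its member beyond the spread of the libraries. The range between the libraries overlapped that of 17 other genes for Mir221 and of 17 for Mir222. There were 12 genes with both values above both values of Mir221, and 64 with both values above those of Mir222.

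Likeness in level was measured as the Euclidean distance in log2(CPM + 1) over the 2 libraries, among the 466 genes. The genes nearest to Mir221 were Mir382 (distance 0.045), Mir433 (0.292) and Mir29a (0.395). Mir382, of the imprinted Dlk1-Dio3 array on chromosome 12, had 6970 CPM in replicate 2 and 12723 CPM in replicate 1, so its values almost coincide with those of Mir221. The genes nearest to Mir222 were Mir93 (distance 0.051), Mir181d (0.197) and Mirlet7f-2 (0.221), the last also on the X chromosome and sharing 22 bases with another hairpin, so that its counts leave out shared reads. Mir222 itself was at a distance of 3.98 from Mir221, and 69 of 465 genes were nearer to Mir221 than its own neighbour was. With 2 libraries this distance describes level and direction and nothing more.

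The libraries differed for Mir221, and for Mir222 the direction depended on the scaling. With scaling by the trimmed mean of M values (TMM), the log2 ratio of replicate 2 over replicate 1 was -0.74 for Mir221 (counting SE 0.0088). It was -0.91 by totals and -0.75 with DESeq2 size factors. For Mir221 the adjusted p was too small to be printed (under 1e-300, two-sided Fisher's exact test with Benjamini-Hochberg adjustment over 466 genes). Mir221 was therefore called lower in replicate 2, by 1.87-fold in CPM. For Mir222 the log2 ratio was 0.07 under TMM (counting SE 0.022), 0.06 with DESeq2 size factors and -0.09 by totals. It passed the same Fisher's exact test (adjusted p = 0.00015) but had no single sign, so it was not called in either direction.

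These differences are read against all tested genes, since the test covers counting error alone and compares 2 libraries, not conditions. Of 466 genes 57.5% passed it, 35.6% were called lower in replicate 2 and 18% (84 genes) higher, with a median log2 ratio of -0.02 under TMM. The Mir221 call is of the commoner kind. By the size of the TMM ratio, 23.4% of the tested genes differed more than Mir221 and 87.3% differed more than Mir222. Mir222 was thus among the steadier genes.

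**Figure D2:**
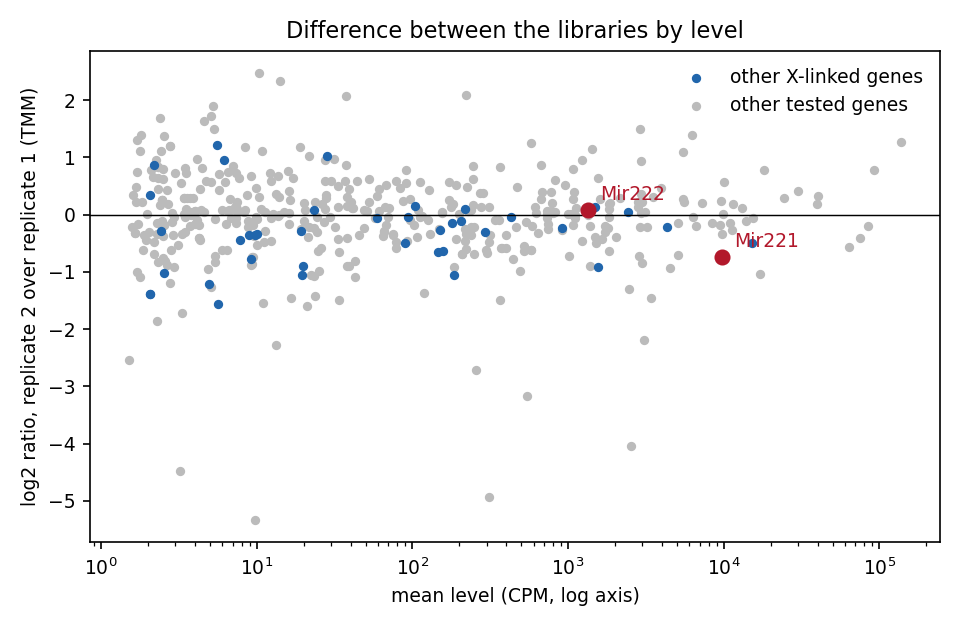
Log2 ratio of replicate 2 over replicate 1 (TMM) against mean level on a log axis in CPM, for 466 tested microRNA genes, with Mir221 and Mir222 in red and the 39 other tested X-linked genes in blue. Mir221 lies at -0.74 and Mir222 at 0.07, near the line of no difference.

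The balance within the pair differed between the libraries. Mir221 made up 83.9% of the pair's counts in replicate 2 (exact 95% interval 83.5 to 84.2) and 90.2% in replicate 1 (90.0 to 90.3). Its counts were 5.20 times those of Mir222 in replicate 2 and 9.16 times in replicate 1, or 4.32 times per base of hairpin in replicate 2 and 7.62 times in replicate 1. Mir221 was the larger member by counted reads in both libraries, by a wide margin. The mean log2 ratio of Mir221 over Mir222 was 2.79 ± 0.58 (SD, n = 2). The difference of this log2 ratio, replicate 2 minus replicate 1, was -0.82 (counting SE 0.024). This ratio does not depend on the scaling of the libraries. The two-sided Fisher's exact test on the 4 counts gave an adjusted p of 4.67e-249 over 89 pairs of neighbouring genes, where both genes lay on one strand within 10 kb and both were tested.

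Such a change of balance was common among neighbouring genes. Of the 89 pairs, 69.7% passed the same test. Many of the pairs lie in the imprinted Dlk1-Dio3 array on chromosome 12, and pairs in a row share genes, so they are not independent. The median size of the difference was 0.39 on the log2 scale (quartiles 0.22 and 0.74), against 0.82 for Mir221 over Mir222. In 17 pairs (19.1%) the difference was larger. Among the 30 pairs with at least 1000 counts for both genes in both libraries the median was 0.47, and 10 of these pairs differed more. Of the 12 X-linked pairs only Mir98 over Mirlet7f-2 differed more than the pair described here, by -1.05.

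**Figure D3:**
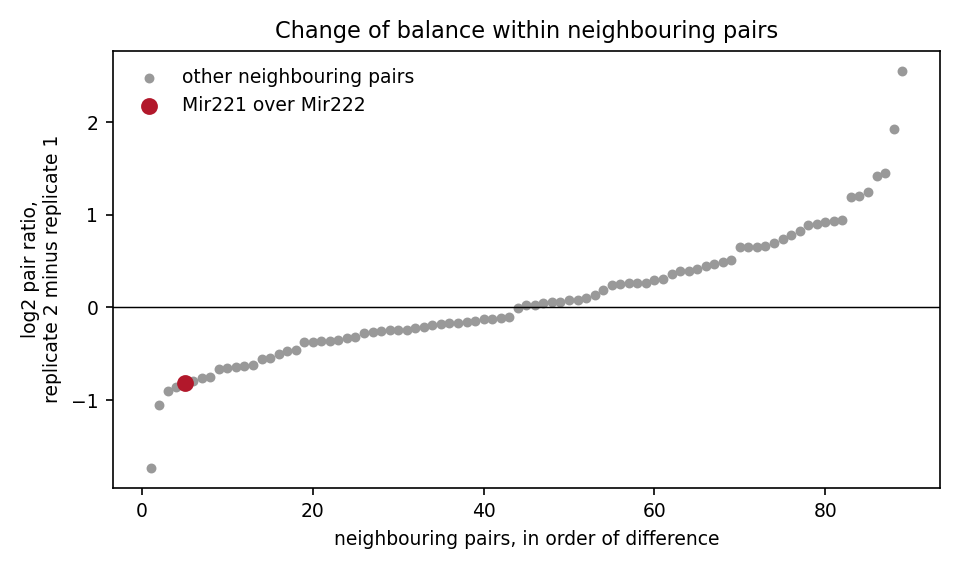
Log2 ratio of the 3′ gene over the 5′ gene of each neighbouring pair, replicate 2 minus replicate 1, for 89 pairs in order of the difference. Mir221 over Mir222, in red, lies at -0.82, toward the lower end, and 17 pairs have a larger difference of either sign.

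Mir221 and Mir222 are 2 of 142 annotated microRNA genes on the X chromosome. The pair held 25.7% of the X-linked counts in replicate 2 and 29.6% in replicate 1. Mir221 came second among X-linked genes in both libraries, and Mir222 sixth in replicate 2 and seventh in replicate 1. Above Mir221 was Mir652, at 11757 CPM in replicate 2 and 18551 CPM in replicate 1. Below it came Mir361, at 3723 CPM in replicate 2 and 4858 CPM in replicate 1. Mir676 followed at 2339 CPM in replicate 2 and 2540 CPM in replicate 1. Mir98, of the let-7 family, had 1001 CPM in replicate 2, against 2109 CPM in replicate 1. All of these were lower in replicate 2 in CPM, though Mir676 had no single sign across scalings (log2 ratio 0.04 under TMM). Of the other 140 X-linked genes 39 were tested, of which 22 were lower in replicate 2, 3 were higher, 1 had no single sign and 13 did not pass. Lower calls were 56.4% of these genes, with the share of 35.6% over all tested genes as background. Their median log2 ratio was -0.29 under TMM and -0.46 by totals, beside -0.02 and -0.18 over all tested genes.

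**Figure D4:**
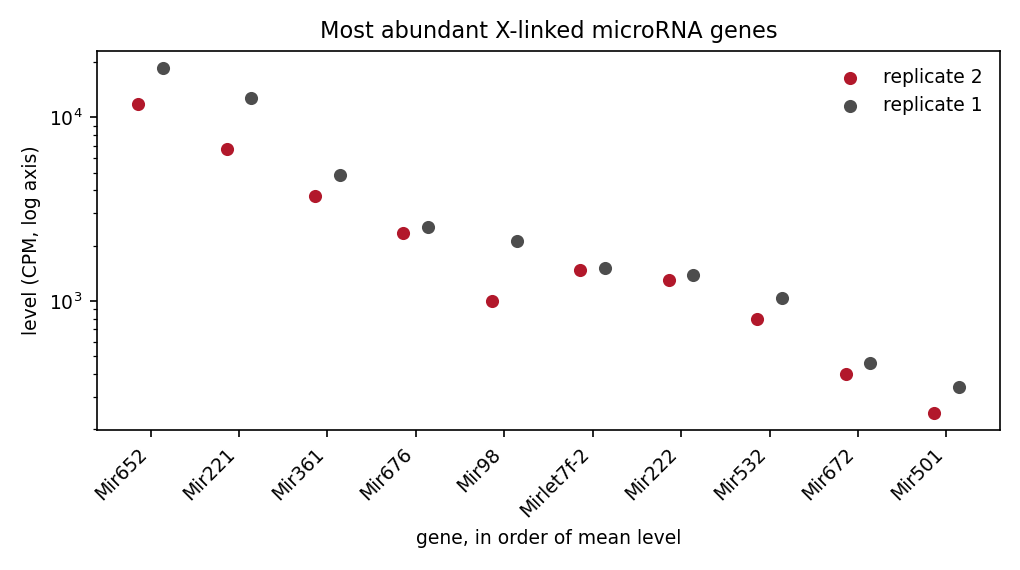
Level in CPM on a log axis of the 10 X-linked microRNA genes with the highest mean, in replicate 2 (red) and replicate 1 (grey). Mir221 is second at 6760 CPM in replicate 2 and 12661 CPM in replicate 1. Mir222 is seventh at 1300 CPM in replicate 2 and 1382 CPM in replicate 1.

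Other microRNA genes of the vessel wall were followed because the pair is known from these cells. Of 11 listed genes 7 were tested, of which 4 were lower in replicate 2, 1 was higher, 1 had no single sign and 1 did not pass. Lower calls were thus 57.1% of these 7 genes and higher calls 14.3%, with 35.6% lower and 18% higher over all tested genes as background. That background depends on depth. With a minimum mean of 50 counts, which these 7 genes also meet, 155 of 328 genes were lower and 78 were higher. The median of their log2 ratios was -0.36 under TMM and -0.52 by totals, beside -0.02 and -0.18 over all tested genes. Mir126a, the endothelial microRNA gene within Egfl7, had 2897 CPM in replicate 2 and 6191 CPM in replicate 1, a log2 ratio of -0.93. Mir143, of smooth muscle and pericytes, had 1327 CPM in replicate 2 and 2314 CPM in replicate 1, a log2 ratio of -0.64. Mir221, at -0.74, lay between them. The highest of the rest were Mir92-1, higher in replicate 2 at a log2 ratio of 0.48 but uncertain because it shares 22 bases with another hairpin, and Mir21a, widely induced by injury, at 0.01 with no single sign. The gene that did not pass was Mir145a, the cluster partner of Mir143, at a log2 ratio of 0.26. The level of Mir126a rests on strand, since without strand it had 8 counts in replicate 2 and 3 in replicate 1.

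Markers of other cells also differed between the libraries. Over all tested genes 35.6% were called lower in replicate 2 and 18% higher, which is the background for these calls. With so few genes per cell type, no share is read against it. The 3 oligodendrocyte genes summed to 3193 CPM in replicate 2 and 7078 CPM in replicate 1. Most of that gap was Mir219a-2, at 1671 CPM in replicate 2 and 5126 CPM in replicate 1 (log2 ratio -1.46), which shares 22 bases with another hairpin and is uncertain. Mir338 was lower by less, at a log2 ratio of -0.20, and Mir219a-1 did not pass at -0.04. The 2 erythrocyte genes were both lower in replicate 2 and summed to 31.7 CPM in replicate 2 and 72.2 CPM in replicate 1. The 11 neuronal genes, of which 10 had counts in both libraries and Mir124a-2 had none, summed to 27842 CPM in replicate 2 and 26787 CPM in replicate 1. Their members moved both ways under these like sums, as 4 of the 7 tested were higher in replicate 2 and 3 were lower. Log2 ratios ran from -0.72 for Mir138-1 to 2.08 for Mir9-3, with 1.40 for Mir128-1 and 1.14 for Mir128-2. Of the 7, Mir132 alone shares fewer than 18 bases with any other hairpin, so the other neuronal values are uncertain. The neuronal genes not tested, Mir9-2 and the Mir124a genes, share 32 or 33 bases with another hairpin. Reads that fit both count for no gene, so the neuronal sums leave them out. The low counts of these untested genes therefore set no limit on their level. The 5 leukocyte genes all had counts in both libraries, and their sum was 2238 CPM in replicate 2, against 2025 CPM in replicate 1. The higher sum came from Mir150 (log2 ratio 0.64), while the other 4 were lower in replicate 2, Mir146 at -0.63, Mir155 at -0.36, Mir142 at -0.73 and Mir223 at -1.38. Mir146 shares 21 bases with another hairpin and is uncertain. Mir223 had only 6 counts in replicate 2 and 21 in replicate 1. In whole tissue, fewer cells of a type and less microRNA per cell cannot be told apart, and the part of cell makeup in the Mir221 difference was not tested.

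MicroRNA genes that repress members of the p21, p27 and p57 inhibitor family in human gastric cancer cells, or are relatives of those genes, made up a further list. All 10 were tested, of which 3 were lower in replicate 2, 1 was higher, 1 had no single sign and 5 did not pass. Lower calls were 30% of the 10 genes and higher calls 10%, not far from the 35.6% lower and 18% higher over all tested genes. The median log2 ratio was 0.03 under TMM and -0.13 by totals. The list summed to 2400 CPM in replicate 2 and 2633 CPM in replicate 1, below Mir221 alone in each library. Its highest genes were Mir93, with a level close to that of Mir222, Mir92-1, Mir17 at a log2 ratio of -0.62, and Mir106b at 0.17, which did not pass.

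Of the microRNA genes known to be induced by neuronal activity or growth factors, Mir132 and Mir134 were lower in replicate 2, at log2 ratios of -0.10 and -0.62, and Mir212 had no single sign at 0.02. With 3 genes, these calls are not read against the background of 35.6% lower. Mir132 stood at 12540 CPM in replicate 2 and 15073 CPM in replicate 1, above Mir221 in both libraries. Mir212 had 694 CPM in replicate 2 and 768 CPM in replicate 1, while Mir134 had 424 CPM in replicate 2 and 730 CPM in replicate 1. Both lay below Mir222.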

How the data were processed

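Raw counts of reads per gene were deposited by the authors for mm10 with GENCODE M21, per the deposited notes, from RNA below 30 nt, per the labels. Neither aligner nor counter is named in the sources used here. The columns carry no heading. The third column of each file, the strand-specific one with the larger total, was taken as sense. Multimapped reads count for no gene, and the 4 read classes were left out of totals (sense counts were 41.3% of all reads in replicate 2 and 42.5% in replicate 1). CPM, exact Clopper-Pearson intervals and Fisher's exact tests were computed in scipy 1.17.1, and scaling factors from every gene with a count in edgeR 4.0.16 (TMM) and DESeq2 1.42.0. Log2 ratios had 0.5 counts added. A gene was called higher or lower if its adjusted p was under 0.05 and its sign was one under TMM, DESeq2 size factors and totals. For a 0 the limit was 3 counts. Intervals, floors and exact tests cover counting error only, as no molecular identifiers are recorded. Named genes were the pair, genes with its seed, the 3 nearest in level, the neighbours in order, and the 4 highest of each list. Mir145a and the single cell type markers were named after their values were seen. Members and lists were chosen with earlier results of these data known.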

Additional observations from a re-analysis of the deposited data

How the results depend on the processing

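Mir221 was lower in replicate 2 under all 8 alternatives, with log2 ratios between -0.91 by totals and -0.71 with TMM over tested genes only, an alternative chosen after seeing the data. The log2 ratio of Mir222 reversed to -0.089 by totals, against 0.073 under TMM. The exact test uses raw counts, so another scaling or added count cannot change its p, and the filters change only the adjustment. Only counts without strand give the test new input, and both members passed with them. The mean level of Mir221 moved to 4086 CPM and that of Mir222 to 562 CPM when all reads of the library were the total, which follows from the larger total. Mir222 moved to 1432 CPM with counts without strand and to 1558 CPM with Mir139 left out of the total, which follows from the smaller totals. Mir221 rose with the same totals, to 10376 CPM without strand and to 11100 CPM without Mir139, but stayed within its wider SD. The other alternatives moved these levels by less than 1 SD, which for Mir221 is as wide as 4173 CPM. Leaving out a library always moves a mean of 2 values by less than 1 SD, so that alternative could not come out otherwise. The difference in the Mir221 over Mir222 ratio and its call were the same under its 4 alternatives, which change only the other pairs tested, although with no filter 49.2% of 122 pairs passed and 28.7% differed more, against 69.7% and 19.1% of 89 pairs. Between 201 and 268 genes passed, which was 33.5% of 787 with no filter, 57.5% of the 466 tested and 76.8% of 328 with a minimum mean of 50 counts. Leaving out a library leaves 1 value and no comparison between libraries. No paired analysis was possible because the labels give a single group. Strand had no effect on the counts of the pair, and depth did not limit them, but 2 libraries give no error between animals.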
